A study of Mus musculus with 6 samples.

Results

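Matrix metalloproteinases are enzymes that cut proteins of the extracellular matrix, and the Timp proteins block them. The account covers 10 genes chosen by name: the metalloproteinases Mmp2, Mmp3, Mmp7, Mmp9, Mmp10, Mmp12, Mmp13 and Mmp14 and the inhibitors Timp1 and Timp2. They have 12 probes on an array that measures 31709 genes and unnamed transcripts, and 8 of the 10 were well above background on at least 1 array. RNA came from glandular stomach mucosa, separated from its muscle layer, of C57BL/6J mice that were wild type or A4gnt null. A4gnt encodes the enzyme that adds a terminal α1,4-linked N-acetylglucosamine to the mucin of gastric glands. Each genotype was sampled at 5, 10 and 50 weeks, with 1 mouse and 1 one-colour array per genotype and age, so 3 arrays per genotype. Which part of A4gnt the null allele lacks is not given in the sources used here, nor is whether the mice were littermates. The 3 wild-type arrays lay on one slide and the 3 null arrays on another, so slide and genotype cannot be told apart.

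Most metalloproteinases leave the cell as inactive proenzymes, and removal of the propeptide by another protease opens the active site. Collagenases such as Mmp13 cut fibrillar collagen, stromelysins such as Mmp3 and Mmp10 cut a broad range of matrix proteins and activate other proenzymes, and gelatinases such as Mmp2 and Mmp9 cut denatured collagen. Mmp14 is anchored in the membrane and, together with Timp2, presents and activates the proenzyme of Mmp2. Many of these genes are quiet in resting tissue and are induced by cytokines and growth factors in fibroblasts, macrophages or epithelium, often through AP-1, the dimer of Fos and Jun proteins.

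Between 54.8% and 59.2% of the 43020 noncontrol spots of an array were called well above background, and 0 were saturated. A signal is given below as a percent of its array's 75th percentile, which lay between 252.8 and 402.8 intensity units. The lowest signal called well above background was 2.51% to 4.48% of that percentile, and where a probe fell short of the call a fold is a bound, taken from that lowest signal or from the probe's own if higher. A4gnt was detected above background in the 3 wild-type mice and in none of the null mice, at least 24.3-fold lower over the 3 ages. The fitted difference of -6.75 (log2, limma adjusted p = 0.0922) uses null signals below the background call. The glandular stomach markers, such as those of parietal and chief cells, were well above background on all 6 arrays for 9 of 9 genes. At an unadjusted limma p under 0.05, 4 of them were lower in null mucosa, Atp4a (-1.33), Cblif (-1), Pgc (-0.85) and Atp4b (-0.8, log2), and 2 higher, Muc6 (0.92) and Tff2 (0.83), while 0 passed the adjusted threshold. Over all 17860 genes tested, 12.6% were lower and 11% higher at that unadjusted p. Of 5 forestomach markers 3 were tested and 2 were lower at the unadjusted p, Krt5 by -3.01 and Trp63 by -0.33 (limma adjusted p = 0.197 and 0.209). The part of these differences in the members' values was not tested. Because the samples are pieces of tissue, fewer cells of a type and less RNA per cell cannot be told apart, and the number of arrays limits the precision.

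Mmp3, Mmp10 and Mmp13 were the members with the largest fitted differences between the genotypes, and all 3 lie in 1 cluster of metalloproteinase genes on chromosome 9. The last 120 bases before the transcription start of each follow, with those of Mmp7 and Mmp1a from the same cluster for comparison. Mmp7 was well above background on only 2 null arrays and Mmp1a, a collagenase that is not a member, on none. Capitals mark the AP-1 motif (TGAGTCA, or TGACTCA on the other strand) and the TATA motif (TATAAA, on the strand shown). The sequences are RefSeq's for build GRCm38.p6, plus strand, 5′ to 3′: Mmp3 chr9:7445702-7445821, Mmp10 chr9:7502222-7502341, Mmp13 chr9:7272394-7272513, Mmp7 chr9:7691970-7692089 and Mmp1a chr9:7464021-7464140.
Mmp3: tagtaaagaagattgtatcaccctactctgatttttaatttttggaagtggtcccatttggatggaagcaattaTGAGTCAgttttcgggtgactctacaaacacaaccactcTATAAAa
Mmp10: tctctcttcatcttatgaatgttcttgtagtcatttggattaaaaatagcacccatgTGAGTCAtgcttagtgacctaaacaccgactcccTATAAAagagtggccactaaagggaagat
Mmp13: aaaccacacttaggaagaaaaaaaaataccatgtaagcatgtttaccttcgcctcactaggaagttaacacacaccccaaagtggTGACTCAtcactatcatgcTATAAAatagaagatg
Mmp7: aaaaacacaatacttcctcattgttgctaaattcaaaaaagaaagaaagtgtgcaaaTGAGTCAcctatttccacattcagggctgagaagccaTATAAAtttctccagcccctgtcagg
Mmp1a: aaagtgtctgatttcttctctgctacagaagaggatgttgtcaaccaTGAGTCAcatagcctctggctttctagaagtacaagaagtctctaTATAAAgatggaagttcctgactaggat
The AP-1 motif lies 46 to 40 bases before the start in Mmp3, 63 to 57 bases before it in Mmp10 and Mmp7, 35 to 29 bases in Mmp13 and 73 to 67 bases in Mmp1a. All 5 also hold a TATA motif in the stretch shown. RefSeq promoters were matched for 8 of the 10 members, all except Mmp2 and Mmp9. Over the 250 bases before a start, the AP-1 motif was found on either strand in 5 of these 8 members. These were Mmp3, Mmp10, Mmp13 and, at 1 of the starts of each, Mmp7 and Mmp12. A member was counted if any of its starts held the motif, and the Mmp7 stretch shown is from the start that does. Counted per promoter, not per gene, the AP-1 motif was found in 4.46% of 32851 mouse promoters. TATAAA, on 1 strand, was found in 7.59% of them, over 250 bases rather than the 120 shown above. Neither Mmp14, Timp1 nor Timp2 holds the AP-1 letters in the 250 bases. Among genes of the cluster that are not members, Mmp1b also holds them, while no match was found for Mmp8 and Mmp20. Mmp12, which holds the AP-1 motif at 1 of its starts, stayed under the background call on all 6 arrays. Whether the motif goes with signal was not tested.

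Mmp10, stromelysin 2, was well above background on the 3 null arrays and on none of the wild-type arrays. Its signal in the null mice was 24.6%, 90.5% and 157% of the 75th percentile at 5, 10 and 50 weeks, against 1.02%, 2.02% and 1.63% in the wild-type mice. The lowest null array thus lay well above the highest wild-type array. The bounds on null over wild type were at least 5.48-fold higher (5 weeks), at least 30.3-fold (10 weeks) and at least 41.7-fold (50 weeks). Over the 3 ages the bound was at least 19.1-fold, which has no test of its own. The fitted difference of 5.55 ± 0.42 (log2, SE, n = 3 arrays per genotype) uses the wild-type signals below the background call. Its limma adjusted p was 0.0967, not past the threshold of 0.05.

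Mmp3, stromelysin 1, gave null signals of 33.3%, 57.6% and 88.3% at 5, 10 and 50 weeks. The wild-type signals were 1.11%, 8.41% and 0.884%, and only the 10-week array was well above background there. The genotypes did not overlap, and the wild-type mouse of 10 weeks stood apart from the other two wild-type mice. The null signal was 6.85-fold higher at 10 weeks. At 5 weeks it was at least 7.43-fold higher. The bound at 50 weeks was 23.5-fold. The fitted difference over the ages was 4.78 ± 0.79 (log2, SE, n = 3 arrays per genotype; limma adjusted p = 0.132), and rests on 2 wild-type signals below the background call.

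Mmp13, the interstitial collagenase of rodents, had null signals of 5.02%, 40.7% and 72.1%. Its wild-type signals were 0.937%, 1.73% and 1.35%, none of them well above background. The null mouse of 5 weeks lay just over the limit of detection, at least 1.12-fold higher than wild type. The lower bounds for the older pairs were 13.6-fold (10 weeks) and 19.2-fold (50 weeks). Over the 3 ages Mmp13 was at least 6.64-fold higher. The fitted difference of 4.24 ± 0.68 (log2, SE, n = 3 arrays per genotype, limma adjusted p = 0.131) uses wild-type signals below the background call.

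In the null mice these 3 genes shared an order of signals by age, lowest at 5 weeks and highest at 50 weeks. From 5 to 50 weeks the null signal was 14.4-fold higher for Mmp13, 6.39-fold for Mmp10 and 2.65-fold for Mmp3. This order was common: 22.3% of the 16574 genes well above background on the 3 null arrays had it. A test of whether the genotype difference widened with the logarithm of age gave 0.91 ± 0.45 per doubling of age for Mmp13, 0.58 ± 0.31 for Mmp10 and 0.72 ± 0.68 for Mmp3 (log2, SE, n = 3 arrays per genotype), each with a limma adjusted p of 1. Of 17860 genes 0% passed that test in limma, while at an unadjusted p under 0.05 1.47% had a positive and 1.36% a negative term. Each of these ages is 1 mouse, so age and the mouse cannot be told apart. The trends also use wild-type signals below the background call, at every age for Mmp10 and Mmp13 and at all but 10 weeks for Mmp3.

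Mmp7, matrilysin, is made by epithelium and in the mouse intestine by Paneth cells. Its null signals were 1.19%, 5.41% and 6.54% at 5, 10 and 50 weeks, and the last 2 were well above background. The wild-type signals of 1.33%, 2.94% and 1.07% were not. Null over wild type was at least 1.81-fold at 10 weeks, with a bound of at least 1.74-fold at 50 weeks, while neither array measured it at 5 weeks. With 2 arrays above background it did not reach the 3 required for the fit. The lysozyme gene Lyz1, the only one of 3 Paneth cell markers matched on the array, differed by 0.46 (log2; limma adjusted p = 0.281).

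**Figure D1:**
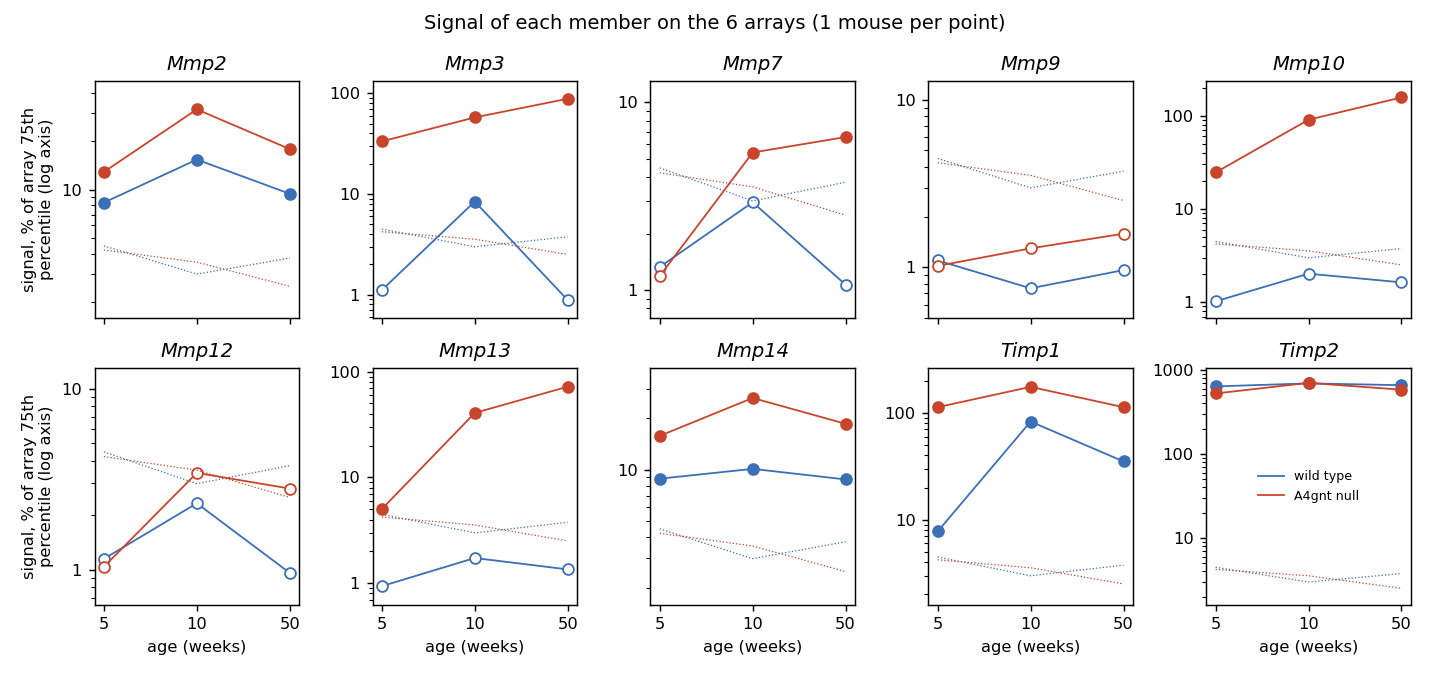
Signal of the 10 members by age (weeks) in wild-type (blue) and A4gnt-null (red) mucosa, as a percent of each array's 75th percentile on a log axis with its own range in each panel. Each point is 1 mouse, filled where the probe was well above background and open where it was not, and dotted lines give the lowest signal called well above background; Mmp10 reached 157% in the null mouse of 50 weeks while its wild-type points stayed under the dotted lines.

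The gelatinases differed from each other in detection. Mmp2, a gelatinase of fibroblasts, was well above background on all 6 arrays. Its wild-type signals were 8.32%, 15.4% and 9.44% at 5, 10 and 50 weeks, and its null signals 12.9%, 31.6% and 17.9%. The null array was the higher at each age, by 1.55-fold, 2.06-fold and 1.9-fold, but the wild-type mouse of 10 weeks exceeded the null mouse of 5 weeks, so the genotypes overlapped. The fitted difference was 0.87 ± 0.14 (log2, SE, n = 3 arrays per genotype; 95% interval 0.49 to 1.24; limma adjusted p = 0.131).

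Mmp9, the gelatinase of neutrophils and macrophages, stayed under the background call on all 6 arrays. Its 10 replicate spots gave mean signals of 0.75% to 1.1% in wild type and 1.02% to 1.59% in null mucosa. A single spot of 134 units on the null array of 5 weeks was flagged as an outlier and left out, beside 9 other spots with at most 3.25 units. Mmp12, the macrophage elastase, did likewise with both of its 2 probes, whose signals ran from 0.605% to 3.43%. No difference in Mmp9 or Mmp12 could be measured at these signals. The macrophage markers had 5 of 7 genes tested, and their summed signal was 2053% to 2919% in wild type and 1985% to 2970% in null mucosa, with Cd68 not well above background. That sum is mostly Itgam and Csf1r, with wild-type means of 3.91 and 2.97 (log2), against -2.41 for the next brightest, Mpeg1. At an unadjusted limma p under 0.05, 2 of the 5 were higher and 0 lower, Mpeg1 by 0.93 and Lyz2 by 0.32 (log2; limma adjusted p = 0.137 and 0.208), and the list's median was 0.14. Over all genes tested, 11% were higher and 12.6% lower at that unadjusted p. Of the 7 neutrophil markers, Mpo and Cxcr2 did not pass the background call anywhere, and the summed signal was 4144% to 7011% in wild type and 3641% to 4882% in null mucosa. This sum is mostly Csf3r, with a wild-type mean of 5.52 (log2), against 1.2 for the next brightest, Elane. Of the 5 tested, 2 were higher and 0 lower at the unadjusted threshold, S100a8 by 2.29 and S100a9 by 1.57 (log2; limma adjusted p = 0.2 and 0.204), with a list median of 0.51. Their largest differences were at 5 weeks, 20.3-fold for S100a8 and 8.47-fold for S100a9, the age of the largest Timp1 difference. Their part in the members' differences was not tested.

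Mmp14, the membrane-type metalloproteinase, was well above background on all 6 arrays. Its wild-type signals of 8.84%, 10.1% and 8.75% lay within a narrow range, and its null signals were 15.8%, 26.4% and 18.6%. The lowest null mouse was above the highest wild-type mouse. The null signal was 1.78-fold higher at 5 weeks, 2.62-fold at 10 weeks and 2.13-fold at 50 weeks. Over the ages the difference was 1.1 ± 0.15 (log2, SE, n = 3 arrays per genotype; 95% interval 0.68 to 1.53; limma adjusted p = 0.125).

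Timp1, the inducible inhibitor of most metalloproteinases, was well above background on all 6 arrays and, of the 4 members measured on all of them, varied most among the wild-type mice. The wild-type signals were 7.77%, 82.9% and 35.1% at 5, 10 and 50 weeks, a step of 3.42 on the log2 scale between 5 and 10 weeks. The null signals were 113%, 175% and 113%, all above the wild-type values. The null signal was 14.5-fold higher at 5 weeks, 2.11-fold at 10 weeks and 3.21-fold at 50 weeks. The fitted difference was 2.21 ± 0.6 (log2, SE, n = 3 arrays per genotype; 95% interval 0.56 to 3.85; limma adjusted p = 0.169), and without the 5-week pair it was 1.38. The wild-type mouse of 5 weeks also had the lowest summed signal of 5 smooth muscle markers, 1165% against 3978% and 6150% in the other wild-type mice and 1570% to 5272% in the null mice. The part of that difference in the Timp1 values was not tested.

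Timp2, the inhibitor that bridges Mmp14 and the Mmp2 proenzyme, had the smallest fitted difference of the members tested. Its brighter probe read 638%, 694% and 660% in wild type and 526%, 704% and 583% in null mucosa, and the genotypes overlapped. The difference was -0.15 ± 0.12 (log2, SE, n = 3 arrays per genotype; 95% interval -0.49 to 0.2; limma adjusted p = 0.505), and its sign turned to 0.01 with scaling to the array median. The other Timp2 probe did not overlap between genotypes, with 86.2%, 98.3% and 72.5% in wild type and 63.2%, 53.5% and 46.9% in null mucosa. The 3 null arrays likewise lay below the 3 wild-type arrays for 11.3% of the 17860 genes tested. The difference at this other probe was -0.65 ± 0.14 (log2, SE, n = 3 arrays per genotype; limma adjusted p = 0.145). The 2 probes lie at different places of the same transcript (mm9 chromosome 11), the brighter at 118163146 to 118163205 and the other split over 118171964 to 118178741, and they disagree in the size of the difference.

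**Figure D2:**
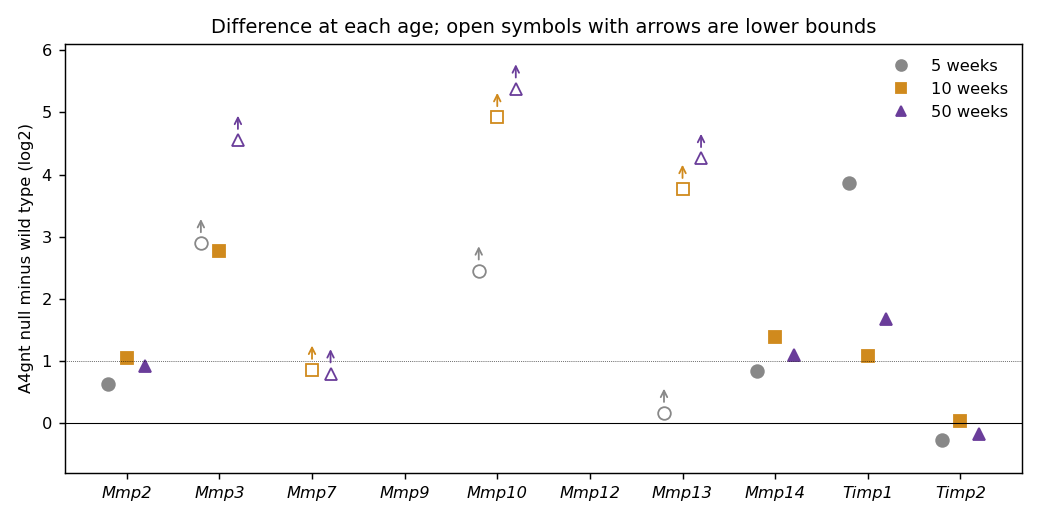
Difference between null and wild type (log2) for each member at 5, 10 and 50 weeks, with 1 mouse per genotype and age. Filled symbols are measured differences and open symbols with arrows are lower bounds, the dotted line marks 2-fold, and Mmp9 and Mmp12 have no symbol because neither array measured them; Mmp10 and Mmp13 have their highest bounds at 50 weeks and Timp1 its highest difference at 5 weeks.

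None of the 7 members that could be fitted passed the threshold, and 0% of the 17860 genes tested passed it in either direction. At an unadjusted limma p under 0.05, 1966 genes (11%) were higher and 2250 (12.6%) lower in the null mucosa. With arrays scaled to their median, which moved the median difference of all genes from -0.03 to 0.13, these counts were 3932 and 1202. The 3 null arrays lay above the 3 wild-type arrays for 5 members, Mmp3, Mmp10, Mmp13, Mmp14 and Timp1, as they did for 12.5% of the genes tested. Mmp10 and Mmp13 were tested only because their null arrays were bright, so they had to differ. Mmp3, with 1 wild-type array well above background, also reached the required 3 only through its null arrays, so the filter favoured a difference there too. Of the 4 members measured on all 6 arrays, Mmp14 and Timp1 did not overlap, against 13.1% of the 15968 such genes higher in the same way. Past 2-fold at a single age, bounds included, were Mmp3, Mmp10 and Timp1 at 5 weeks, where 4.68% of genes were, with Mmp2, Mmp13 and Mmp14 added at 10 weeks (5.15%). At 50 weeks Mmp3, Mmp10, Mmp13, Mmp14 and Timp1 were past it (2.38%). Mmp3, Mmp10 and Timp1 were past 2-fold at all 3 ages, as were 0.634% of 17362 genes.

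Signals by age followed a second order in the members measured on every array. Mmp2, Mmp14, Timp1 and Timp2 each had their highest signal at 10 weeks in both genotypes, an order held by 7.11% of the 15968 genes well above background on all 6 arrays. For Timp2 this holds at the brighter probe, while the other was highest at 5 weeks in null mucosa (63.2%). Mmp2 was 1.09 ± 0.17 higher at 10 than at 5 weeks over both genotypes (log2, SE, n = 2 arrays per age; limma adjusted p = 0.388), and 0.0112% of genes passed that test in that direction. Timp1 was 2.02 ± 0.73 higher between the same ages (log2, SE, n = 2 arrays per age; limma adjusted p = 0.411). No member passed the adjusted threshold for any pair of ages. At an unadjusted limma p under 0.05, Mmp2, Mmp10 and Timp1 were higher at 10 than at 5 weeks, as were 5.12% of genes. Mmp2 was lower at 50 than at 10 weeks (4.53% of genes), and Mmp10 higher at 50 than at 5 weeks (7.46%). The Mmp10 age differences include wild-type signals below the background call.

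The nearest profiles over the 6 arrays, measured as Euclidean distance of log2 values centred on each gene's mean among 15967 other genes, were found for the 4 members measured on all arrays. For Mmp2 they were those of Col6a1, a chain of collagen VI, at a distance of 0.29 and Tmem176a at 0.35. For Mmp14 they were Aldh3b1 at 0.36 and Jam2, a junctional adhesion molecule, at 0.4. For Timp1 the nearest were Col18a1, a basement membrane collagen, at 0.85 and the chemokine Cxcl14 at 1.17, both farther than the neighbours of Mmp2 and Mmp14. For Timp2, whose signal hardly varied, Bri3bp and Alg3 lay at 0.12.

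The chromosome 9 cluster holds 10 metalloproteinase genes and no other gene measured by the array, over 415 kb of mm9 (7282762 to 7697700). In order of position they are Mmp13, Mmp12, Mmp1b, Mmp3, Mmp1a, Mmp10, Mmp8, Mmp27, Mmp20 and Mmp7. Mmp3, Mmp10 and Mmp13 were the 3 well above background on at least 3 arrays. Mmp12, Mmp1b, Mmp1a, Mmp27 and Mmp20 stayed under the background call on all 6 arrays, including Mmp1a between Mmp3 and Mmp10. Mmp8, the neutrophil collagenase, was above it on 1 null array, at least 1.09-fold higher at 5 weeks. In the flanks of 1 Mb on either side, the 9 genes well above background on all 6 arrays differed by -0.64 to 0.34 (log2). That filter leaves out genes dim in 1 genotype, among them Trpc6, a cation channel gene, which was well above background on 2 null and 0 wild-type arrays with a mean difference of 1.94. The A4gnt probe lies 91.8 Mb away on the same chromosome. The other members lie elsewhere, with mm9 probe positions on chromosome 8 for Mmp2 (95376840 to 95376899), 2 for Mmp9 (164780620 to 164780679), 14 for Mmp14 (55058775 to 55058834), X for Timp1 (20451802 to 20451861) and 11 for Timp2. Probes of the members shared at most 30 of 60 bases with any other metalloproteinase or Timp probe, and that of Mmp10 at most 27.

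**Figure D3:**
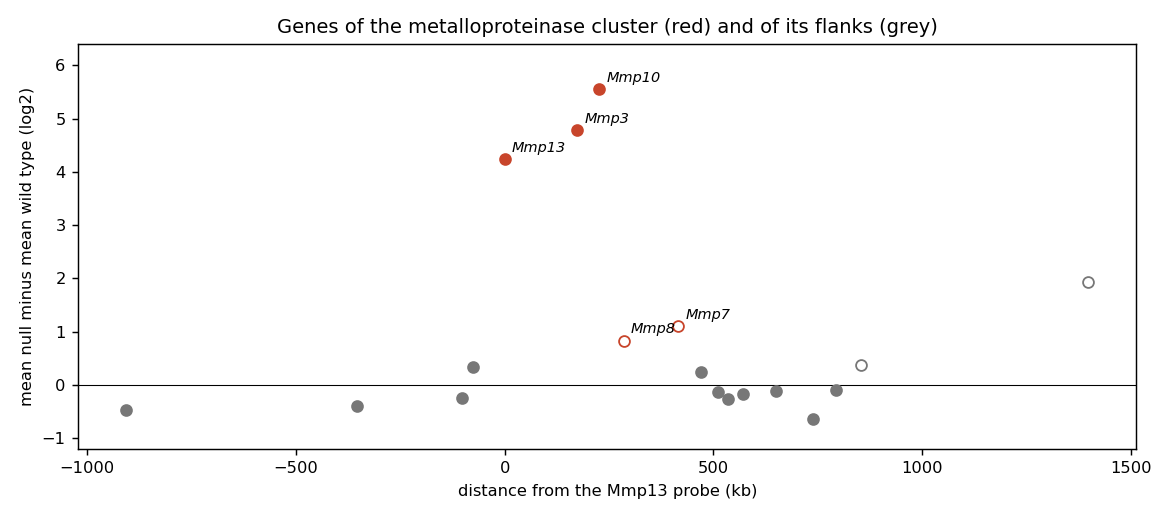
Mean null minus mean wild-type signal (log2, n = 3 arrays per genotype) of the genes measured on at least 1 array in and around the chromosome 9 cluster, by distance from the Mmp13 probe in kb. Metalloproteinases are red and flanking genes grey, filled where at least 3 arrays were well above background, and values of Mmp3, Mmp10 and Mmp13 include wild-type signals below the background call; the filled flanking genes lie between -0.64 and 0.34, and the open flanking point at the far right is Trpc6, 1.94.

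Other genes of the system were counted from lists. The shares to set beside the counts below are 11% higher and 12.6% lower of all 17860 genes tested, at an unadjusted limma p under 0.05. These shares depend on how the arrays are scaled. Of 15 other metalloproteinases, 7 stayed under the background call throughout and 5 were tested, with 0 past the adjusted threshold, 2 lower and 0 higher at an unadjusted limma p under 0.05, and a median difference of -0.39 (log2). Those named by size were Mmp24, Mmp23 (-0.62), Mmp15 (-0.39) and Mmp17 (-0.28). Mmp24 passed the background call in wild type alone and was at least 1.57-fold lower in null mucosa. It was tested only because its wild-type arrays were bright, so it had to differ. Of 8 other inhibitors 4 were tested and 0 passed either threshold, with a median of -0.4. They were Spock2 (-0.6), Timp4 (-0.45), Timp3 (-0.35), which binds to matrix, and the membrane inhibitor Reck (0.09). The median of all genes tested was -0.03.

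Of 16 genes of proenzyme activation 12 were tested, with 0 past the adjusted threshold, 7 higher and 1 lower at the unadjusted one, and a median of 0.68 (log2). Plau, the urokinase that makes plasmin, was 4.07-fold higher at 10 weeks. At 5 and 50 weeks, where wild type was under the background call, the lower bounds were 2.17-fold and 3.12-fold. The fitted difference of Plau was 2.35 (limma adjusted p = 0.11). Its receptor Plaur differed by 1.74 (limma adjusted p = 0.191). Furin, which activates membrane-type metalloproteinases such as Mmp14 inside the cell, differed by -1.2 (limma adjusted p = 0.126).

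Of 24 inducers and AP-1 or ETS factors 19 were tested, with 0 past the adjusted threshold, 7 higher and 3 lower at the unadjusted one, and a median of 0.58 (log2). The cytokine Il11 differed by 3.01 (limma adjusted p = 0.142) and Il1b, an inducer of stromelysins, by 2.69 (limma adjusted p = 0.152), with 1 wild-type signal under the background call. Hgf, a growth factor of fibroblasts, was at least 3.06-fold higher. Its fitted difference was 2.55 (limma adjusted p = 0.101), with the wild-type signals under the background call. Hgf was tested only because its null arrays were bright, so it had to differ, and it counts among the 7 higher. Egf differed by -2.28 (limma adjusted p = 0.0967). Of the list's 7 Fos and Jun genes, looked at after their values were seen, 0 passed the adjusted threshold, 0 were higher and 2 lower at the unadjusted one, Fosl2 with -0.42 and Jun with -0.41. The other five differed by 1.44 (Fosl1), 0.83 (Fosb), 0.58 (Fos), 0.12 (Junb) and -0.26 (Jund). Fosl1 was 10.2-fold higher in the null mouse at 5 weeks and 1.19-fold lower at 10 weeks.

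Of 22 matrix substrates 21 were tested, with 0 past the adjusted threshold, 9 higher and 0 lower at the unadjusted one, and a median of 0.54 (log2). Col18a1 differed by 2.3 (limma adjusted p = 0.137), the matrix glycoprotein Tnc by 1.57 (limma adjusted p = 0.149), and Col5a2 and Col5a1, chains of collagen V, by 1.28 and 0.92 (limma adjusted p = 0.255 and 0.125). The values of Tnc and Col5a2 include 1 and 2 wild-type signals under the background call. Of 15 ADAM and ADAMTS proteases 13 were tested, with 0 past the adjusted threshold, 1 higher and 0 lower at the unadjusted one, and a median of 0.26. Adam8, a protease of myeloid cells, differed by 1.83, Adamts4 by 0.93, Adam28 by 0.42 and Adamts2 by 0.36, where Adamts4 includes 2 wild-type signals under the background call.

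Of 8 fibroblast markers, 5 of them also in the list of matrix substrates, all were tested with 0 past the adjusted threshold, 5 higher and 0 lower at the unadjusted one, and a median of 0.7 (log2). Their summed signal was 1361% to 2159% in wild type and 2119% to 2789% in null mucosa, and no marker of the list was below background on all arrays. By age, the sums were 2159%, 1830% and 1361% in wild type and 2216%, 2789% and 2119% in null mucosa. The near-level sums at 5 weeks hide opposite signs. Dcn, the brightest marker, was lower in the null mouse there (-0.6, log2). Every other marker of the list was higher at that age, from 0.26 for Col1a2 to 1.33 for Thy1. The part of fibroblast content in the differences of Mmp2, Mmp14 and Timp1, which fibroblasts express, was not tested.

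**Figure D4:**
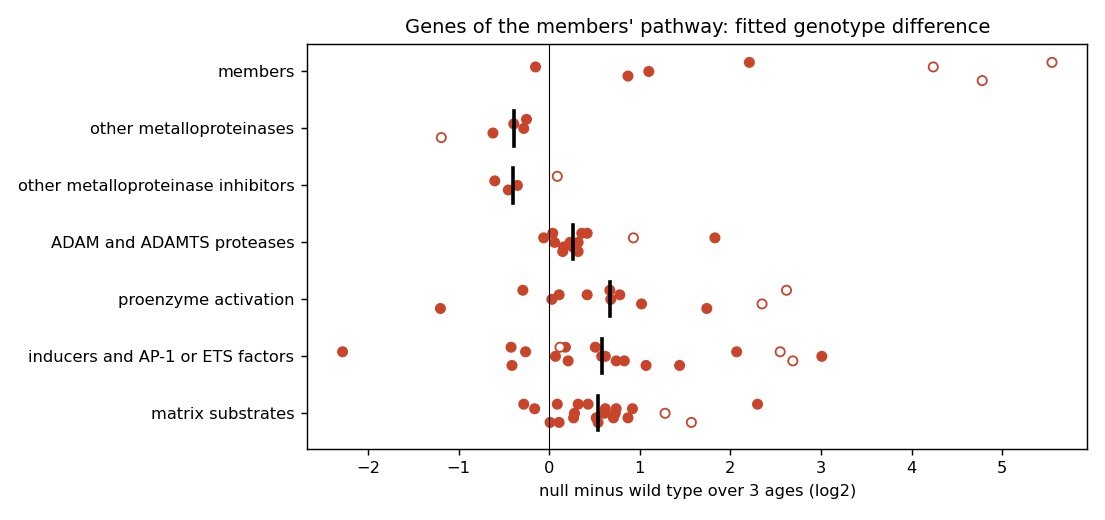
Fitted difference between null and wild type over the 3 ages (log2, n = 3 arrays per genotype) for the tested members and 6 lists of related genes. Each point is 1 gene, filled where all 6 arrays were well above background and open where fewer were, and black bars are list medians, which ran from -0.4 for other inhibitors to 0.68 for proenzyme activation; vertical offsets within a list only separate points.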

How the data were processed

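Per the labels, total RNA of each mucosa was labelled with Cy3 and hybridised to 1 array. Per the file headers, Agilent Feature Extraction 10.7.1.1 wrote a background-subtracted intensity per spot. A second deposited table, of log2 values, equals the log2 of that intensity plus a constant of each array (-7.88 to -8.54, column medians -3.56 to -3.89) within 0.001 for 100% of 39399 probes. It was used as an alternative, and its centring is unstated.

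Intensities were put on the log2 scale minus the array's 75th percentile. Outlier spots (98 to 144 per array) were dropped, spots of a probe averaged, and the brightest probe stood for a gene. Genes well above background on at least 3 arrays were fitted with limma 3.58.1 in R 4.3.3 (age as a factor, 2 residual and 2.12 prior degrees of freedom) with Benjamini-Hochberg adjustment over 17860 genes. Single ages have no test. The script was tested on simulated data. Alternatives were median scaling, quantile normalization, normexp, the deposited table, other filters, the mean of probes, no age term, a variance trend and each age pair left out. The other Timp2 probe was chosen after seeing the data. All members are named. Up to 4 genes per list with the largest difference and the 2 nearest profiles are named. One gene that this rule would name is not reported here. Members and lists were chosen with earlier results of these data known. Probe positions are mm9. A RefSeq table named 26055 probes by accession, 3195 through their symbol and 930 through a synonym; for 9249 the array's own name was kept.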

Additional observations from a re-analysis of the deposited data

Results flagged for a closer look

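At its brighter probe, Timp2 differed in sign between ages, with null minus wild type of -0.28 at 5 weeks, 0.02 at 10 weeks and -0.18 at 50 weeks (log2, 1 mouse per genotype and age). This difference between ages was not tested for single ages. The term for the genotype by age trend at that probe was 0.01 ± 0.13 (limma adjusted p = 1). The other Timp2 probe did not change sign, with -0.45, -0.88 and -0.63 at 5, 10 and 50 weeks (log2).

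Mmp14 from 5 to 50 weeks moved by -0.01 in wild type and 0.24 in null mucosa (log2, 1 mouse each), and Mmp3 from 10 to 50 weeks by -1.16 or further in wild type, a bound, and 0.62 in null mucosa. These opposite signs were not tested for these pairs of ages. The genotype by age trends were 0.04 ± 0.18 for Mmp14 and 0.72 ± 0.68 for Mmp3 (limma adjusted p = 1 for each).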

How the results depend on the processing

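Mmp10 and Mmp13 were fitted only because their null arrays were bright, so their sign was set in advance. The filter also favoured a higher null signal for Mmp3. The fitted differences of Mmp2, Mmp3, Mmp10, Mmp13, Mmp14 and Timp1 kept their sign in every alternative that could be fitted. Without each age pair in turn they ran from 0.78 to 0.98 for Mmp2, 3.84 to 5.77 for Mmp3, 5.04 to 6.04 for Mmp10, 3.49 to 5.15 for Mmp13, 0.96 to 1.24 for Mmp14 and 1.38 to 2.77 for Timp1 (log2). Normexp, which adds an offset of 50 units, gave 0.3, 1.69, 2.23, 1.33, 0.44 and 1.46 in the same order, and Mmp3 then passed (limma adjusted p = 0.0336, range over its alternatives 0.0336 to 0.332). Mmp10 passed with a variance trend, with 5.55 (limma adjusted p = 0.0495, range 0.0495 to 0.318). Both Mmp3 and Mmp10 reached the filter only through their null arrays, so these passes add no evidence of a difference. Timp2 turned sign with median scaling to 0.01, at 10 weeks with quantile normalization to -0.02 and with the mean of probes to -0.43, and at 50 weeks with median scaling to 0.04. The trend with age reversed for Mmp2 with normexp (-0.01) and for Timp2 with the mean of probes (-0.01). With no filter the members left out of the fit differed by 1.11 (Mmp7), 0.65 (Mmp12) and 0.47 (Mmp9), with limma adjusted p of 0.498, 0.529 and 0.509.

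Over all genes, limma called 97 higher and 92 lower with normexp, 4 and 2 without the age term, 28 and 13 with a variance trend, and 1 lower with quantile normalization. For 10 against 5 weeks, 0 were higher with no filter and with all 6 arrays above background, and 2 (normexp) and 1 (variance trend) lower. For 50 against 5 weeks, 9 (normexp), 4 (variance trend), 0 (no filter) and 0 (all 6 arrays) were higher, and 4 (normexp) and 1 (variance trend) lower. Past 2-fold at 5, 10 and 50 weeks, normexp gave 334, 411 and 198 higher and 260, 548 and 372 lower, and the 6-array filter 560, 597 and 281 higher and, at 50 weeks, 625 lower. Median scaling gave 681 higher at 50 weeks. The filters change which genes are tested; for the other alternatives the cause was not tested.

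Each array is 1 mouse, ages stand in for replicates, and slide and scan cannot be told apart from genotype. Signals of Mmp9, Mmp12 and, in wild type, Mmp10 and Mmp13 are under the background call, so their size there is not known.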
